A study of Mus musculus with 7 samples.

Results

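The genes described are 5 regulators and enzymes of cell death: Bcl2 and Bcl2l1, which encode the survival proteins BCL-2 and BCL-XL, the caspase genes Casp8 and Casp4, and Birc2, which encodes the ubiquitin ligase cIAP1. They were picked by symbol from the deposited table, in which each of the 5 matched 1 of 752 genes. The 7 libraries came from B cells that were taken from mouse spleens on magnetic columns, 3 from Batf KO mice and 4 from wild type mice, all on the C57BL/6J background. All were cultured for 6 h with LPS, a bacterial product sensed by TLR4, at 20 µg/mL and with the cytokine IL-4 at 20 ng/mL. No unstimulated library was analysed here, and the sources used here do not state the Batf allele, the age or the sex of the mice. The comparison asks which transcripts differ in activated B cells that lack BATF, a transcription factor of the AP-1 family.

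BCL-2 and BCL-XL sit on mitochondria and hold the pore-forming proteins BAX and BAK in check, so that cytochrome c stays inside. In B cells, BCL-2 is a main survival factor of the resting cell, and BCL-XL is known to be induced after activation. Caspase-8 starts apoptosis at death receptors and also holds back necroptosis. The product of mouse Casp4, often called caspase-11, binds intracellular LPS and starts pyroptosis. cIAP1 attaches ubiquitin to RIPK1 and to the kinase NIK, which keeps the alternative NF-kappaB pathway low.

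In Batf KO, Bcl2 and Casp8 transcripts were lower and Bcl2l1, Casp4 and Birc2 transcripts were higher. The differences were moderate, from 1.32-fold for Birc2 to 1.57-fold for Casp8. The ratio of Bcl2 to Bcl2l1 transcripts within a library differed 2.28-fold. It was 0.145 ± 0.0327 (SD, n = 4) in wild type and 0.0634 ± 0.00148 (SD, n = 3) in Batf KO. For each of the 5 genes, the Batf KO and wild-type libraries did not overlap.

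How the genes reached the table limits what these differences show. The table holds 752 genes, all with a false discovery rate (FDR) under 0.05 in the authors' own comparison of these libraries. That is 1.95% of the 19734 genes they tested as higher in Batf KO and 1.86% as lower. Every member had therefore passed on this contrast, and its difference is a description rather than independent evidence. In edgeR's quasi-likelihood test of the deposited counts, 50.8% of the 667 fitted genes were called higher and 49.2% lower, which is all of them, and 5 of 5 members were called too. Adjusted over all 19734 genes, 0.679% were called higher and 0.77% lower, or 42.9% of the fitted genes. By that stricter rule Bcl2l1 and Casp8 were called, 2 of 5 members. The groups did not overlap for 96.1% of the fitted genes, so the same separation in 5 of 5 members says nothing particular about them. The median size of the members' log2 fold changes was 0.56, against 0.61 over all fitted genes.

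Effective library sizes ran from 23675459 to 44728937 reads. Batf was lower in each Batf KO library (63.4 to 70.3 CPM, read counts scaled to library size) than in each wild-type library (307 to 333 CPM). This is the direction of the genotype labels, which give no Batf level. Batf reads remained in the Batf KO libraries, at 1559 to 1955 per library. Libraries of 1 group were compared by a chi-square statistic of their counts per degree of freedom, which was 18.0 for wild-type replicates 1 and 2, 20.3 for replicates 3 and 4, and 32.6 to 48.5 for the other wild-type pairs. The wild-type libraries thus lay in pairs, for which the labels give no batch. By the mouse numbers in the labels, the 3 Batf KO mice lie between wild-type replicates 1 and 2, and wild-type replicates 3 and 4 carry higher numbers than all of these. What the numbers stand for is not stated. For Bcl2 and its ratio to Bcl2l1, the values against each pair are given below. Against wild-type replicates 1 and 2 alone, log2 fold changes were 0.61 for Bcl2l1, -0.64 for Casp8, 0.51 for Casp4 and 0.37 for Birc2. Against replicates 3 and 4 alone they were 0.52, -0.67, 0.43 and 0.44. Of 8 B cell markers, Ms4a1 and Blk are in the table, at 607 to 687 CPM in sum in wild type and 943 to 1006 CPM in Batf KO, and the others have no level here. Of 5 plasma cell genes, Irf4 was higher and Prdm1 lower in Batf KO. Prdm1 did not pass over all genes the authors tested (edgeR adjusted p = 0.276), and its log2 fold change was -0.40 against wild-type replicates 1 and 2 alone and -1.002 against replicates 3 and 4 alone.

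Bcl2 (ENSMUSG00000057329, chromosome 1, 106538178 to 106714274, minus strand, GRCm38) was measured at 56.5, 74.4, 50.6 and 47.9 CPM in wild-type replicates 1 to 4. It was at 39.0, 36.2 and 36.5 CPM in Batf KO replicates 1 to 3. Wild-type replicate 2 was the highest, and the Batf KO libraries lay close together and below all wild-type libraries. Mean levels of 57.4 ± 11.9 CPM (SD, n = 4) and 37.2 ± 1.54 CPM (SD, n = 3) gave a 1.54-fold difference. The log2 fold change was -0.62 (SE 0.15), with an edgeR adjusted p of 0.00363 over the fitted genes and 0.107 over all genes the authors tested. The size of this difference depended on the wild-type libraries: it was -0.81 against replicates 1 and 2 alone and -0.41 against replicates 3 and 4 alone. Bcl2 overlaps 3 other annotated genes, D630008O14Rik on the opposite strand and Mir3473f and Gm37053 on the same strand. The sources used here do not say whether counting used strand, and whether exons overlap was not checked. How far reads of these genes add to the Bcl2 counts is thus not known. In bulk RNA, fewer cells that carry a transcript and less transcript per cell cannot be told apart, for Bcl2 or for any gene below.

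Bcl2l1 (ENSMUSG00000007659, chromosome 2, 152780668 to 152831728, minus strand) moved the other way. It was at 375, 396, 396 and 425 CPM in wild-type replicates 1 to 4 and at 632, 565 and 566 CPM in Batf KO replicates 1 to 3. The lowest Batf KO library was 140 CPM above the highest wild-type library. Bcl2l1 rose 1.48-fold, from a wild-type mean of 398 ± 20.4 CPM (SD, n = 4) to a Batf KO mean of 588 ± 38.4 CPM (SD, n = 3). The log2 fold change was 0.56 (SE 0.07), and the gene passed over the fitted genes (edgeR adjusted p = 0.000156) and over all genes the authors tested (edgeR adjusted p = 0.00462). By reads, Bcl2l1 stood high in the table, with only 12 of the 667 fitted genes at a higher mean CPM. This rank is not corrected for gene length.

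**Figure D1:**
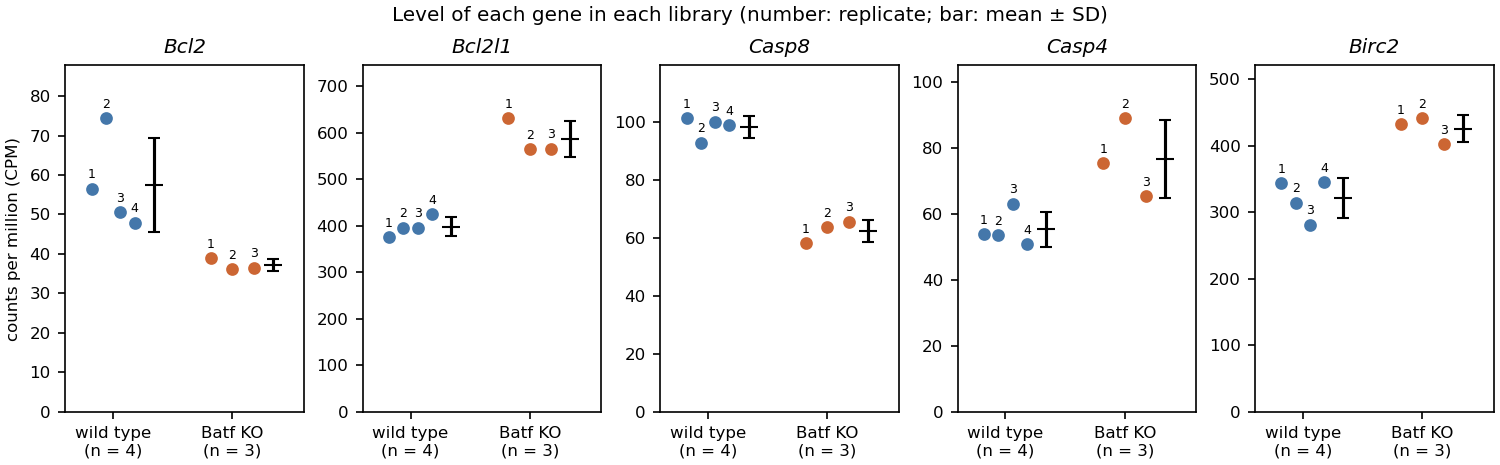
CPM of the 5 genes (vertical axes, each from 0) in 4 wild-type and 3 Batf KO libraries; numbers are replicates, and bars are the mean ± SD. Bcl2 and Casp8 sit lower in every Batf KO library and Bcl2l1, Casp4 and Birc2 higher, with the smallest gap for Casp4 (2.31 CPM).

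Because both genes are read in the same library, their ratio does not depend on library size. It was 0.151, 0.188, 0.128 and 0.113 in wild-type replicates 1 to 4, and 0.0617, 0.0640 and 0.0644 in Batf KO replicates 1 to 3. The highest ratio was in wild-type replicate 2, the library with the most Bcl2, while the Batf KO ratios were nearly equal. Read the other way, Bcl2l1 reads outnumbered Bcl2 reads 5.32 to 8.86 times in wild type and 15.5 to 16.2 times in Batf KO. The mean ratio in Batf KO was 43.8% of that in wild type, a log2 difference of -1.19. In an exact two-sided permutation test over the 35 possible assignments of genotypes p was 0.0286, the smallest these can give. Bcl2 was lower and Bcl2l1 higher in every Batf KO library, so the ratios had to lie apart. Both genes had also been selected on this contrast in opposite directions. This p thus only restates their separation and is not independent evidence. The test also took all libraries as exchangeable, although the wild-type libraries lay in pairs. Against wild-type replicates 1 and 2 alone the log2 difference was -1.42, and against replicates 3 and 4 alone it was -0.92.

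The summed CPM of Bcl2 and Bcl2l1 was higher in Batf KO, at 625 ± 39.9 (SD, n = 3) against 455 ± 19.6 (SD, n = 4), since Bcl2l1 made up most of it. Levels of different genes can be compared only per length, so CPM was also divided by the kilobases of exon that GENCODE M21 gives each gene. Per kilobase, Bcl2 had a wild-type mean of 6.27 ± 1.30 CPM (SD, n = 4) and a Batf KO mean of 4.06 ± 0.17 CPM (SD, n = 3). Bcl2l1 had means of 86.8 ± 4.45 CPM per kilobase (SD, n = 4) and 128 ± 8.37 CPM per kilobase (SD, n = 3). The annotated exons of Bcl2 cover 9.157 kb, so its level per kilobase would differ if cells used a shorter form.

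**Figure D2:**
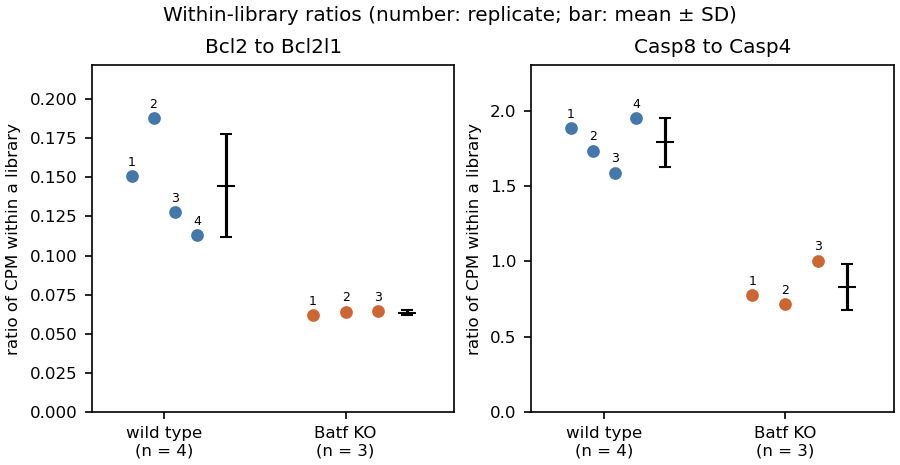
Ratio of Bcl2 to Bcl2l1 CPM (left) and of Casp8 to Casp4 CPM (right) within each library, vertical axes from 0; numbers are replicates, and bars are the mean ± SD. The 3 Batf KO libraries lie at 0.0617 to 0.0644 on the left and 0.715 to 1.003 on the right, below the wild-type libraries in both.

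Among the caspase genes, Casp8 (ENSMUSG00000026029, chromosome 1, 58795374 to 58847503, plus strand) was lower in Batf KO. It was at 101, 92.9, 100.3 and 99.1 CPM in wild-type replicates 1 to 4. In Batf KO replicates 1 to 3 it was at 58.2, 63.7 and 65.6 CPM. Both groups were tight, and 27.3 CPM separated the lowest wild-type from the highest Batf KO library. Casp8 fell 1.57-fold, from a wild-type mean of 98.4 ± 3.81 CPM (SD, n = 4) to a Batf KO mean of 62.5 ± 3.84 CPM (SD, n = 3). The log2 fold change was -0.66 (SE 0.07), and the gene passed over the fitted genes (edgeR adjusted p = 8.65e-05) and over all genes the authors tested (edgeR adjusted p = 0.00256). It came 97th of 752 by FDR in the authors' deposited table, the first of the 5 members. The annotated gene Gm37760 lies within its span on the same strand.

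Casp4 (ENSMUSG00000033538, chromosome 9, 5308828 to 5336783, plus strand) was higher in Batf KO, with the widest Batf KO spread of the members relative to its mean (a coefficient of variation of 15.5%). It was at 53.8, 53.6, 63.2 and 50.8 CPM in wild-type replicates 1 to 4 and at 75.4, 89.1 and 65.5 CPM in Batf KO replicates 1 to 3. Batf KO replicate 2 was the highest, and replicate 3 was only 2.31 CPM above wild-type replicate 3, which is less than the SD of either group. The wild-type mean was 55.3 ± 5.40 CPM (SD, n = 4), and the Batf KO mean, 76.6 ± 11.9 CPM (SD, n = 3), was 1.39-fold higher. The log2 fold change was 0.47 (SE 0.12), with an edgeR adjusted p of 0.00454 over the fitted genes and 0.134 over all genes the authors tested. Without Batf KO replicate 2 the log2 fold change was 0.35.

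The caspase genes thus moved in opposite directions, as did the survival genes. The ratio of Casp8 to Casp4 CPM, a measure chosen after the member values were seen, was 1.79 ± 0.16 (SD, n = 4) in wild type and 0.83 ± 0.15 (SD, n = 3) in Batf KO. It was 1.59 to 1.95 in the wild-type libraries and 0.772, 0.715 and 1.003 in Batf KO replicates 1 to 3. That the groups lay apart follows from Casp8 being lower and Casp4 higher in every Batf KO library, and adds nothing to it. The summed CPM of Casp8 and Casp4 overlapped between the groups, at 146 to 163 in wild type and 131 to 153 in Batf KO. Per kilobase of exon, Casp8 (32.1 to 35.1 CPM) was above Casp4 (13.7 to 17.0 CPM) in each wild-type library. In Batf KO the ranges met, at 20.1 to 22.7 CPM per kilobase for Casp8 and 17.6 to 24.0 CPM per kilobase for Casp4.

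Birc2 (ENSMUSG00000057367, chromosome 9, 7818227 to 7837064, minus strand) was also higher in Batf KO. It was at 344, 315, 281 and 346 CPM in wild-type replicates 1 to 4. In Batf KO replicates 1 to 3 it was at 433, 442 and 403 CPM. Wild-type replicate 3 was the lowest, and 57.1 CPM separated the groups. The wild-type mean was 321 ± 30.4 CPM (SD, n = 4), and the Batf KO mean, 426 ± 20.4 CPM (SD, n = 3), was 1.32-fold higher. The log2 fold change was 0.41 (SE 0.08), with an edgeR adjusted p of 0.00193 over the fitted genes and 0.0572 over all genes the authors tested. Of the 667 fitted genes, 551 differed by more.

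**Figure D3:**
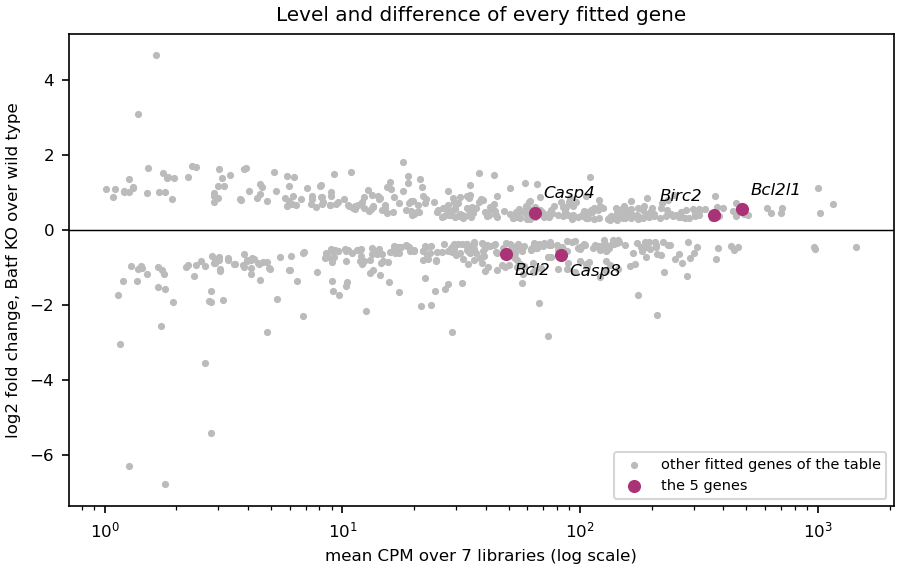
Mean CPM over the 7 libraries (horizontal, log scale) and log2 fold change of Batf KO over wild type (vertical) for each of the 667 fitted genes, with the 5 members marked. The empty band around 0 follows from the selection of the table. The members lie from -0.66 (Casp8) to 0.56 (Bcl2l1). Of the 667 fitted genes, 302 differed by more than Casp8 and 551 by more than Birc2.

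Ordered by mean CPM per kilobase of exon, the members stood in the same order in both genotypes: Bcl2l1, Birc2, Casp8, Casp4 and Bcl2. The Batf KO means of Casp8 (21.6 ± 1.33, SD, n = 3) and Casp4 (20.7 ± 3.20, SD, n = 3) were close, so their order there is not settled. Bcl2l1 (81.8 to 92.6) and Birc2 (61.4 to 75.5) did not overlap in wild type, nor in Batf KO, where Birc2 reached 96.5 and Bcl2l1 started at 123. Casp8 and Casp4 in Batf KO were the only neighbours in this order whose libraries overlapped. Each member was counted with at least 863 reads in each library. The wild-type coefficient of variation was 20.8% for Bcl2, 9.75% for Casp4, 9.46% for Birc2, 5.12% for Bcl2l1 and 3.87% for Casp8. In Batf KO it was 4.14% for Bcl2, the member with the fewest reads, for which counting error alone reached up to 3.404%.

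The sequence before the start sites was searched for letters that AP-1 and other bZIP factors or NF-kappaB bind, in 300-base RefSeq windows (GRCm38.p6) from 250 bases before to 50 after each start. All 5 members matched, with 9 windows in all. The AP-1 motif TGANTCA, searched on both strands, was in none of the 9 windows and in 7.81% of all 32851 windows. The cAMP response element TGACGTCA, which bZIP factors also bind, was in 1 of 9, a Birc2 window, and in 1.79% of all windows. The D-box TTANNTAA, bound by NFIL3, was in none of 9 and in 6.00% of all. The kappaB motif was in 3 of 9 windows, and in 8.46% of all. It was searched as a pattern that allows several spellings, not listed here, and the matches printed below differ in their letters. These were 1 window of Bcl2l1 and 2 of Casp4, which overlap and hold the same matches, so that 1 stretch of sequence was counted for both. No match was found in the windows of Bcl2 and Casp8, and the only Casp8 window starts at a site 7128 bases from the GENCODE start, around which no window was searched. The windows with a match belong to Bcl2l1, Casp4 and Birc2. One for each is printed to show where the match lies, as the 250 bases before the start site, 5′ to 3′ along the gene.

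Bcl2l1, chr2:152830718-152830967, minus strand, kappaB match in capitals: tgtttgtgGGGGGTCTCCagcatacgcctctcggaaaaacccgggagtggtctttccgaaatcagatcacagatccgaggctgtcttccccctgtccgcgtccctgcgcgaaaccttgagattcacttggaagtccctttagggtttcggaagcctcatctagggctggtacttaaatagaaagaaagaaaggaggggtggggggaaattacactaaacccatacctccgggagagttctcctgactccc

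Casp4, chr9:5308599-5308848, plus strand, kappaB matches in capitals: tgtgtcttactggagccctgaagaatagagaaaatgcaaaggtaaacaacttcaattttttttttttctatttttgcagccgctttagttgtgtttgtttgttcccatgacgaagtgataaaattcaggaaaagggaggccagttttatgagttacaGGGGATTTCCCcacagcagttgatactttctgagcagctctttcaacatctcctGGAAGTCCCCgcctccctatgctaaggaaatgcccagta

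Birc2, chr9:7837058-7837307, minus strand, cAMP response element in capitals: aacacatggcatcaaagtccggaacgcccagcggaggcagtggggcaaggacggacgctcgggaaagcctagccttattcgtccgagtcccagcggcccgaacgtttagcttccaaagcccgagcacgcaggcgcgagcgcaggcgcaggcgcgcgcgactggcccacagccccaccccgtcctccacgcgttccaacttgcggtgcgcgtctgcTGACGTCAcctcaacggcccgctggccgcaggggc

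In the Casp4 window, 3 kappaB matches start at positions -93, -92 and -39 from the start site, and the first of them overlap in 1 stretch. The match of Birc2 starts at position -35 and that of Bcl2l1 at position -242. The Bcl2l1 window belongs to 1 of 3 start sites, 1011 bases inside the gene's annotated start, and the remaining windows of this gene held no match. These are matches of letters in 1 window each; binding was not measured.

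Beyond the 5 members, 86 genes of cell death pathways were looked up, members included. The lists were put together with earlier results of these data known. The table holds 11 of them, 7 higher and 4 lower in Batf KO, and the remaining 75 have no level here. By family, 2 of 21 BCL-2 family genes, 2 of 10 caspases and 1 of 13 inhibitor of apoptosis genes and their antagonists are in the table, all of them members. Mcl1, Bax, Bak1, Bcl2l11, Casp9, Birc3 and Xiap are among the genes without a level. None of 7 apoptosome and execution genes is in the table, such as Apaf1 and Cycs.

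Of 17 death receptor pathway genes, the table holds Tnfrsf1b and Cyld. Tnfrsf1b, which encodes the TNF receptor TNFR2 that recruits cIAP1 through TRAF2, rose from a wild-type mean of 127 ± 6.03 CPM (SD, n = 4) to a Batf KO mean of 184 ± 5.26 CPM (SD, n = 3). Its log2 fold change was 0.53 (SE 0.06), and it passed over all genes the authors tested (edgeR adjusted p = 0.00367). Cyld, which encodes a deubiquitinase that removes chains built by cIAP1 and related ligases, had a lower mean in Batf KO, 113 ± 2.29 CPM (SD, n = 3), than in wild type, 135 ± 3.67 CPM (SD, n = 4). Its edgeR adjusted p over all genes the authors tested was 0.0712. Fas, Fadd, Ripk1, Ripk3, Mlkl and Cflar, which work with caspase-8, have no level here.

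Of 7 genes of p53 and B cell survival, 3 are in the table. Tnfrsf13c, which encodes BAFFR, the receptor through which the cytokine BAFF keeps B cells alive, rose from a mean of 351 ± 20.0 CPM in wild type (SD, n = 4) to 584 ± 8.15 CPM in Batf KO (SD, n = 3). Tnfrsf13b, which encodes TACI, another receptor of BAFF, fell from a mean of 370 ± 42.7 CPM in wild type (SD, n = 4) to 160 ± 12.3 CPM in Batf KO (SD, n = 3). Both passed over all genes the authors tested (edgeR adjusted p = 0.000714 and 0.000756). These receptors thus changed in opposite directions, by 0.73 and -1.21 on the log2 scale. The kinase gene Pim2 was 1.33-fold higher and did not pass by that rule (edgeR adjusted p = 0.156).

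Of 11 inflammasome and pyroptosis genes, the table holds Il1b alone, which encodes the cytokine IL-1β. It was at 5.91 to 8.98 CPM in Batf KO and 4.34 to 5.58 CPM in wild type, and its edgeR adjusted p over all genes the authors tested was 0.146. Gsdmd, the gasdermin gene that caspase-11 acts on, has no level here. Casp4 and Il1b are also expressed by myeloid cells. Of 13 myeloid markers the table holds Zbtb46 alone, a dendritic cell gene, at 73.6 to 89.6 CPM in Batf KO and 47.4 to 65.6 CPM in wild type. Of 12 T and NK cell markers the table holds Cd8b1 alone (5.24 to 7.42 CPM in Batf KO and 1.48 to 2.59 CPM in wild type), and of 7 erythroid and platelet markers Pf4 alone (0.76 to 1.04 CPM and 0.28 to 0.63 CPM). The part of other cells in the Casp4 and Il1b differences was not tested. Of 9 genes of RNA quality and handling stress, 4 are in the table (Atf3, Dusp1, Ier2 and Zfp36), all higher in Batf KO, with a sum of 230 to 286 CPM against 178 to 201 CPM in wild type. Their part in the member differences was not tested either.

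**Figure D4:**
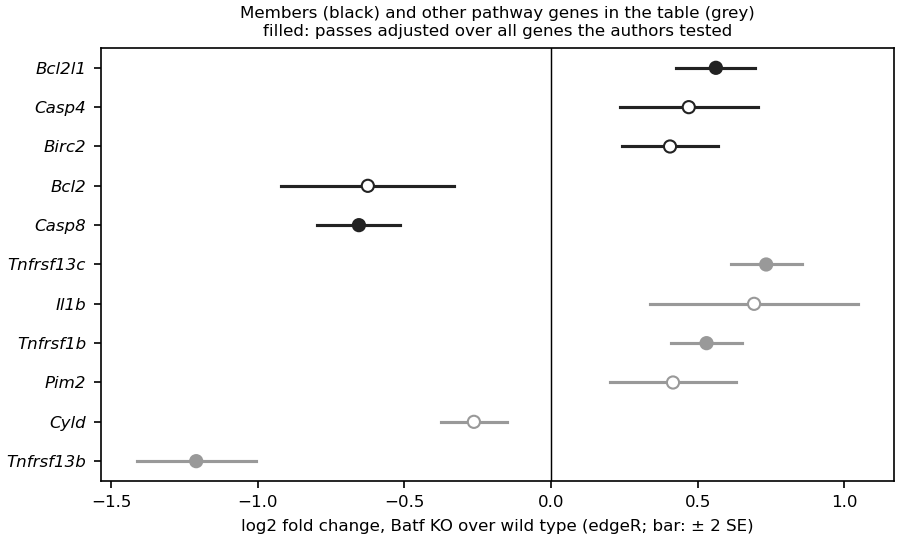
Log2 fold change of Batf KO over wild type (horizontal; bars are ± 2 SE from edgeR) for the 5 members in black and the 6 other cell death pathway genes of the table in grey. Filled points passed adjusted over all genes the authors tested; Tnfrsf13b (-1.21) lies farthest from 0.

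For each member the 3 fitted genes with the nearest profile were listed, by the root mean square distance between log2(CPM + 0.5) profiles over the 7 libraries, each centred on its own mean. For Casp8 these were Plcb2, a phospholipase gene (distance 0.033), Map3k14, which encodes NIK (0.034), and Trove2 (0.065). NIK is a substrate of cIAP1, the Birc2 product. Map3k14 fell from a mean of 42.7 ± 1.19 CPM in wild type (SD, n = 4) to 28.3 ± 1.92 CPM in Batf KO (SD, n = 3), with an edgeR adjusted p of 0.0071 over all genes the authors tested. For Bcl2l1 the nearest were Zfp395 (0.055), Tnfrsf1b (0.067) and Marcks (0.069). For Birc2 they were Ikzf1, a lymphoid transcription factor gene (0.035), Elovl5 (0.040) and Zdhhc18 (0.057). Casp4 was nearest to Nfkbid, which encodes the nuclear inhibitor IkappaBNS (0.081), Pdlim2 (0.10) and Sik3 (0.11). Bcl2 had more distant neighbours, Degs2 (0.092), Pip5k1c (0.11) and Cyp4f18 (0.12). The median distance to a fitted gene was 0.41 to 0.51 for the 5 members. Since all these genes had been selected for a difference between the same groups, near profiles were to be had by selection, and the distances are descriptions over 7 libraries.

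The neighbourhoods of the members were read within 500 kb on each side. None of the 9 protein-coding neighbours of Bcl2, the 17 of Casp8 or the 2 of Casp4 is in the table. Near Bcl2l1, Id1 and Tpx2 were higher in the authors' deposited table (log2 fold changes 0.70 and 0.67), and Kif3b was lower (-0.95). Birc2 has 1 of 13, the matrix metalloproteinase gene Mmp10, which was lower in the authors' deposited table (-2.56). The mean CPM of Mmp10 did not reach 1, so it was not fitted here and its difference rests on a low level. The direction of a member was thus not shared by all listed neighbours.

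**Figure D5:**
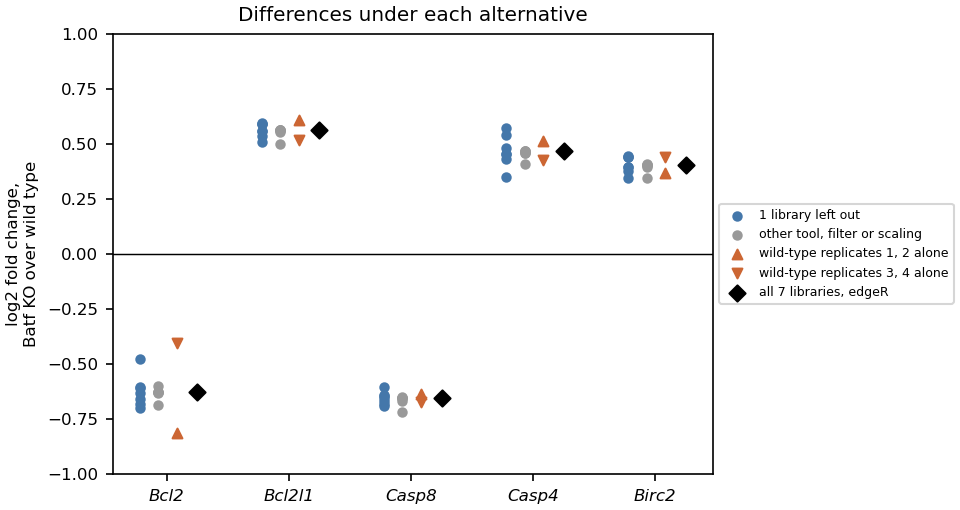
Log2 fold change of each member (vertical) with all 7 libraries (diamonds), with 1 library left out (blue), under another tool, filter or scaling (grey), and against wild-type replicates 1 and 2 or 3 and 4 alone (triangles). No value crosses 0; Bcl2 has the widest range, from -0.81 to -0.41.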

How the data were processed

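All values came from a table deposited for the series. Per the submitters' processing notes the tools were edgeR 3.03, HTSeq 0.5.3p7 and TopHat2 2.0.6 with the build mm10 (GRCm38), without their roles. The annotation and the strand setting were not given in the sources used here. Per the file headers the table gives read counts and CPM (counts scaled to library size) for each library, and the authors' own log2 fold change, likelihood ratio (a score), p-value and FDR. The number of genes the authors tested was recovered from their deposited FDR and p-value.

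The members and lists were chosen with earlier results of these data known. The deposited counts were tested by quasi-likelihood in edgeR 4.0.16 (R 4.3.3), for the 667 genes whose mean CPM reached 1 (85 did not), with library sizes taken as count divided by CPM, and adjusted by Benjamini-Hochberg over these genes. Adjustment over all 19734 genes ranked every gene that was not fitted after the fitted ones. The SE is the log2 fold change divided by the square root of F. Replicates are separate mice per the design text, whose mention of 2 replicates per sample is not explained there. Named are the members, Batf, every listed gene of the fixed lists, and the 3 nearest profiles of each member, with genes named as absent chosen for illustration. Before use, the fit was tested on simulated counts in which most genes were unchanged and no wild-type pairs were built in. This checked that the fit ran correctly, and not its use on genes selected for a difference. Positions are from GENCODE M21 and promoters from RefSeq. Alternatives were DESeq2, limma, TMM factors, other filters, leaving out each library and the wild-type pairs. No protein sequences are shown, and some neighbouring genes are not reported here.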

Additional observations from a re-analysis of the deposited data

Results flagged for a closer look

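In 43 sets of 4 wild-type values, a sample was picked out where its gap to the nearest other took more of the range than Dixon's 95% critical value. For independent sets fixed beforehand, chance would give about 2.15 such sets, and 2 were found, neither of them a member. The sets were not of that kind, as they include near profiles, ratios of members and genes chosen after their values were seen. Both sets found are of genes chosen from these data, so the chance count is only a rough guide. Wild-type replicate 3 held Zdhhc18, a near profile of Birc2, at 156 CPM, where its fellow libraries lay between 182 and 187 CPM. Wild-type replicate 2 held Dapk2 at 0.66 CPM, where its fellow libraries lay between 0.20 and 0.27 CPM. No cause was tested for either.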

How the results depend on the processing

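Each of the 5 members kept its direction under all 15 alternatives run, and its call under all but 1. That exception was the adjustment over all 19734 genes, under which Bcl2 (log2 fold change -0.62), Casp4 (0.47) and Birc2 (0.41) did not pass, with edgeR adjusted p of 0.107, 0.134 and 0.0572. Under the other alternatives the highest adjusted p of a member was 0.0217 (Casp4, against wild-type replicates 3 and 4 alone). With 1 library left out, the log2 fold change was -0.70 to -0.48 for Bcl2, 0.51 to 0.59 for Bcl2l1, -0.69 to -0.61 for Casp8, 0.35 to 0.57 for Casp4 and 0.35 to 0.44 for Birc2. Nearly all fitted genes were called under these alternatives too. With all libraries 339 genes were called higher and 328 lower, by edgeR and by DESeq2 alike. Against wild-type replicates 1 and 2 alone, 303 were called higher and 318 lower, the fewest with libraries left out. A kept call thus says nothing particular about the members. Since the genes were selected on these libraries, the stability of the members is not independent evidence. Of 339 genes called higher and 328 called lower, 134 and 152 passed over all 19734 genes and 61 and 73 with a minimum of 2-fold, both stricter by construction. The log2 difference of the Bcl2 to Bcl2l1 ratio was -1.29 to -1.04 with 1 library left out, -1.42 against wild-type replicates 1 and 2 alone and -0.92 against replicates 3 and 4 alone; with these fewer samples the smallest exact permutation p is 0.0667 or 0.1, so no test could pass. Of 31 other named genes none reversed, 15 did not pass over all 19734 genes, and Prdm1 did not pass against wild-type replicates 1 and 2 alone. The Casp8 to Casp4 ratio and its alternatives were added after seeing the data. No paired analysis was run, because the labels name no pairing between mice of the 2 genotypes. Depth did not limit the members, and levels of unlisted genes were not analysed.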

Other observations

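Other genes of the table carry a related name or a role in cell death but stand outside the lists; they were chosen after their values were seen. Dapk2, which encodes a death-associated protein kinase, has a log2 fold change of 2.10 in the authors' deposited table (FDR 0.0111) but few reads, 113 in the 3 Batf KO libraries and 46 in the 4 wild-type libraries. Batf KO replicates 1 to 3 held 26, 12 and 75 reads, and the groups overlapped (0.45 to 3.17 CPM against 0.20 to 0.66 CPM). Bcl6, the germinal centre repressor gene that shares only the lymphoma-derived name with Bcl2, was at 65.7 to 71.5 CPM in Batf KO and 39.7 to 49.3 CPM in wild type. Bcl9l, a coactivator gene of the Wnt pathway, was at 61.1 to 80.9 CPM in Batf KO and 41.4 to 53.3 CPM in wild type.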
